A study of Mus musculus with 4 samples.

Results

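The genes described here are the cytosolic RNA sensors Ifih1 (MDA5), Ddx58 (RIG-I, named Rigi in newer tables) and Dhx58 (LGP2), their adaptor Mavs, the RNA-activated kinase Eif2ak2 (PKR) and the RNA editor Adar (ADAR1). They were chosen by name: every gene probe of the arrays whose RefSeq transcript belongs to one of these genes was taken, and probes of a gene were kept apart. This gave 9 probes for all 6 genes, of 26575 named probes for 20140 genes, with 2 probes each for Ifih1, Ddx58 and Adar and 1 probe each for the other genes. Within a gene the brighter probe is called probe 1. RNA was measured on 4 single-colour arrays, 1 for each of 4 groups: AB1-HA cells with vehicle, AB1-HA cells with interferon gamma (IFN-γ), LLC cells with vehicle and LLC cells with IFN-γ, all cultured for 24 h. AB1-HA cells derive from a mesothelioma of the BALB/c strain and express the hemagglutinin of influenza virus as a tumor antigen. LLC cells, titled 3LL, derive from the Lewis lung carcinoma, with the strain given as C57BL6. The dose of IFN-γ and the number of cultures behind each array are not given in the sources used here. Line, strain and tissue of origin differ together between AB1-HA and LLC and cannot be told apart.

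RIG-I and MDA5 are helicases that recognise double-stranded or 5′-triphosphate RNA in the cytosol, most often of viral origin, and then assemble MAVS on the outer mitochondrial membrane. MAVS passes the signal to the kinases TBK1 and IKKε and so to IRF3, IRF7 and NF-κB, which switch on type I interferon. LGP2 is a related helicase that lacks the signalling domains of RIG-I and MDA5 and tunes both. PKR binds double-stranded RNA and phosphorylates the translation factor eIF2α, which halts protein synthesis. ADAR1 converts adenosine to inosine in double-stranded RNA, which keeps the cell's own transcripts from being read by MDA5 and PKR. It exists as a short constitutive form, p110, and a long form, p150, made from an interferon-inducible promoter. Several of these genes are themselves interferon-stimulated, and in tumor cells loss of ADAR1 is known to raise sensitivity to interferon.

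Sequences around the transcription start were examined because 5 of the 6 genes had signals at least 2-fold higher with IFN-γ in both lines. Over all genes, 2.98% were higher by this measure in AB1-HA and 3.58% in LLC. Ifih1 and Adar passed by probe 1 alone, Ifih1 in LLC as a bound. The windows are those of RefSeq (build GRCm38.p6), with 250 bases before the start and 50 from it on. They exist for 5 of the 6 genes (7 windows, 3 of them for Adar), and none was used for Dhx58. The motifs searched, on both strands, were the core of the interferon-stimulated response element (ISRE), GAAANNGAAA, which IRF-containing complexes bind; the same repeats 1 base closer, GAAANGAAA; and the core of the gamma-activated site, TTCNNNGAA, which STAT dimers bind. Capitals mark every match, and the 4 windows that held one are shown 5′ to 3′ on the strand of the gene.
Ifih1, chr2:62646206-62646505, minus strand: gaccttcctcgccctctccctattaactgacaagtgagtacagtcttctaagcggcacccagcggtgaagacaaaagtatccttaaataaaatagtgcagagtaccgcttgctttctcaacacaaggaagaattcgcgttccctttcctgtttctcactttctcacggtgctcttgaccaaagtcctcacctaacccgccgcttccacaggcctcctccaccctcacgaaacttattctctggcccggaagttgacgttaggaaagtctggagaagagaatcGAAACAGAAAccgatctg
Ddx58, chr4:40239776-40240075, minus strand: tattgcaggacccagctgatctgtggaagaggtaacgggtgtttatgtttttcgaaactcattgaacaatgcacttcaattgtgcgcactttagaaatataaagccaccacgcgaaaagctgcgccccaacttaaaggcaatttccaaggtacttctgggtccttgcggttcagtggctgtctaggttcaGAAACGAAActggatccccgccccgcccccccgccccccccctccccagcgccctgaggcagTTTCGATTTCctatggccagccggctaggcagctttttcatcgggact
Eif2ak2, chr17:78882523-78882822, minus strand: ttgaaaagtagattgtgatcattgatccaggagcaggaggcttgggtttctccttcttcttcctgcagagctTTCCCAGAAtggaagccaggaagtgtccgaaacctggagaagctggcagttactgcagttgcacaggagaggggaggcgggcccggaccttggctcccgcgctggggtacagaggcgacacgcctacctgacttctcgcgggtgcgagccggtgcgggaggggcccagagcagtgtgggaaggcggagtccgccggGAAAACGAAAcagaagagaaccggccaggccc
Adar, chr3:89730468-89730767, plus strand: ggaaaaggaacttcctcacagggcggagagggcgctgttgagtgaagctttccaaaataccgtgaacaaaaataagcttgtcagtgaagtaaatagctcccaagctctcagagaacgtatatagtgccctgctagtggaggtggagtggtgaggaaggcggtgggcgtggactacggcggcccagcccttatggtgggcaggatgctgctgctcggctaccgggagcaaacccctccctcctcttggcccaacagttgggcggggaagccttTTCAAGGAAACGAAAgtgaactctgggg
The ISRE core was found in Ifih1, Ddx58 and Eif2ak2, starting 33, 3 and 19 bases into the transcript, with the start base counted as 1. In Ddx58 it lay on the opposite strand. The closer repeat was found in Ddx58, 60 bases before the start, and in the window at the third Adar start. The gamma-activated core was found in Eif2ak2, 178 bases before the start, and at the same Adar start, where it overlapped the closer repeat. The Mavs window and the windows at the other Adar starts held none of the 3 motifs. Of 32851 windows of this length over all genes, 3.44% held the ISRE core, 3.17% the closer repeat and 8.30% the gamma-activated core. The 3 motifs were chosen with the member sequences in view, so setting the matches beside these shares is no test. A match is a description of letters and not of a bound site.

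By the scanner's own mark, 22664 to 22947 of the 39419 probes for genes stood well above background per array, the array's 75th percentile lay between 1380 and 1598 intensity units, and no gene spot was saturated. Signals are given as processed intensity with the scanner's own error for that spot, which covers the spot and neither culture nor labelling. Differences are log2 differences between 2 arrays after each was scaled to its 75th percentile, and "higher" or "lower" below means at least 2-fold, a size and not a significance: with 1 array per group there is no replicate check and no test was run. In bulk RNA, fewer cells expressing a gene and less RNA per cell cannot be told apart. The IFN-γ labels were checked on Irf1 (4.44 in AB1-HA and 4.43 in LLC), Gbp2 (10.08 and 11.30), Irgm2 (7.87 and 7.87) and B2m (1.63 and 1.64). By another probe the Irf1 figures were lower, at 3.23 in AB1-HA and 1.60 in LLC. Of 10 mesothelial markers, 5 were well above background on the AB1-HA vehicle array and 4 on that of LLC, and between these arrays 3 were lower in LLC and 2 higher. Msln read 50299 in AB1-HA and 154 in LLC, whereas the keratins Krt8 (47.5 and 9469) and Krt18 (239 and 134098) were the 2 higher in LLC, and Wt1, Calb2, Upk3b, Upk1b and Lrrn4 were not on any array. Of 10 lung epithelial markers 3 were well above background in LLC (Scgb1a1, Aqp5 and Ager). Scgb1a1 and Aqp5 were so in AB1-HA too, and Aqp5 was lower in LLC (−2.65 on the vehicle arrays). Sftpc, Nkx2-1, Epcam and Cdh1 were not well above background on any array, so the labelled tissue of LLC was not borne out by its defining markers. That of AB1-HA was likewise not borne out by Wt1, Calb2, Upk3b, Upk1b and Lrrn4, although Msln was bright there. Among 7 leukocyte markers, 4 (Cd3e, Itgam, Csf1r, Nkg7) were well above background on each array, whereas Ptprc and Adgre1 were not on any, and Csf1r differed with IFN-γ in LLC (1.74, or 0.28 by another probe). The part of these signals in the results was not tested.

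In AB1-HA, all 3 sensors, Eif2ak2 and Adar had higher signals on the IFN-γ array, and the adaptor Mavs did not. Ifih1 and Adar passed 2-fold by probe 1 alone. Of the 9 probes, 6 were at least 2-fold higher and none was lower, where 2.86% of all 23298 probes with a value were higher and 1.11% lower. The median of the 9 probes was 2.16 against −0.09 over all probes. In LLC, 6 of 8 probes with a value were higher and none was lower, against 4.03% higher and 1.13% lower over 23326 probes, with medians of 2.0 and −0.02. Of all probes past 2-fold in LLC, 78.1% were higher. This share came to 61.4% when arrays were scaled to their median, 65.8% under quantile and 60.4% under cyclic loess normalization. It came to 91.8% under normexp, a background correction that compresses dim signals, with quantile normalization. Median scaling lowered every LLC difference relative to the values here, the median of all probes by 0.14. The counts of 6 member probes in each line were the same under array median scaling. The genes were picked by name with earlier results of these data known, so the counts describe them and single nothing out.

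**Figure D1:**
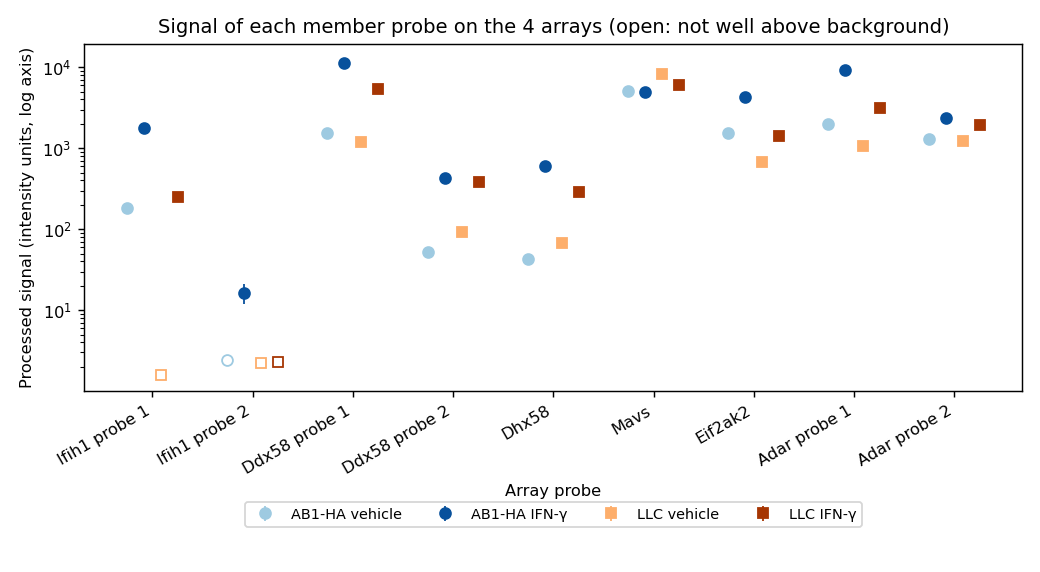
Processed signal (intensity units, log axis) of the 9 probes on the 4 arrays, 1 point per array with the scanner's error as a bar where it exceeds the symbol; open symbols were not well above background. The IFN-γ point lies above the vehicle point of the same line for both Ddx58 probes, Dhx58, Eif2ak2 and both Adar probes, while the 4 Mavs points lie between 4917 and 8196.

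Ifih1, which encodes MDA5, the sensor of long double-stranded RNA, was the gene whose 2 lines stood furthest apart. Probe 1 gave 184 ± 18.5 (scanner error) on the AB1-HA vehicle array and 1763 ± 176 with IFN-γ. On the LLC vehicle array it gave 1.59 and was not well above background, and with IFN-γ it gave 253 ± 25.4. The IFN-γ signal thus exceeded the vehicle signal in both lines, and treated LLC lay near untreated AB1-HA, at 1.36 times its scaled level. The difference was 3.22 ± 0.20 (9.32-fold) in AB1-HA, the 130th highest of 22195 probes measured on both arrays, and at least 38.2-fold in LLC, where the vehicle side is only a bound. Under normexp the differences were 2.59 and at least 1.91. Probe 2 was dim: it was well above background on the AB1-HA IFN-γ array alone, at 16.4 ± 4.5, against 2.24 to 2.39 on the other arrays. Its bound in AB1-HA was at least 1.93-fold, just short of 2-fold, and it had no value in LLC; probe 1 passed 2-fold in LLC only through the treated array.

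Ddx58, which encodes RIG-I, the sensor of short RNA with a 5′ triphosphate, was higher by both of its probes in both lines. Probe 1 read 1549 ± 155 and 11257 ± 1126 in AB1-HA (vehicle, then IFN-γ), and 1191 ± 119 and 5438 ± 544 in LLC. Probe 2 read 52.5 ± 5.5 and 431 ± 43.2 in AB1-HA, and 93.0 ± 9.4 and 385 ± 38.5 in LLC. Each IFN-γ signal lay above both vehicle signals of its probe. The differences in AB1-HA were 2.82 ± 0.20 by probe 1 and 3.00 ± 0.21 by probe 2, and in LLC 2.38 ± 0.20 and 2.24 ± 0.21, so the probes differed by 0.18 and 0.14, less than the scanner error of a difference. Under normexp the dimmer probe 2 was at 1.91 in AB1-HA and 1.34 in LLC, while probe 1 stayed between 2.24 and 2.90 over all alternatives in both lines.

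Dhx58, which encodes LGP2, the regulator of the other sensors, had the largest measured difference among the 9 probes in AB1-HA. Its signal was 43.0 ± 4.8 with vehicle and 597 ± 59.8 with IFN-γ in AB1-HA, and 68.4 ± 7.1 and 287 ± 28.8 in LLC. Set against AB1-HA on the scaled log2 level, LLC was at 0.46 with vehicle, within 2-fold, and at −1.04 with IFN-γ. Under normexp these values were 0.13 and −0.73, both within 2-fold. The differences with IFN-γ were 3.76 ± 0.22 (13.5-fold, the 93rd highest of 22195) and 2.26 ± 0.21 (4.79-fold, the 191st highest of 22224). Both vehicle signals were low, and under normexp the differences with IFN-γ were 1.95 and 1.09. In AB1-HA Dhx58 was then no longer first, below Ddx58 probe 1 (2.73), Ifih1 probe 1 (2.59) and Adar probe 1 (2.10).

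Mavs, the mitochondrial adaptor on which the sensors converge, was within 2-fold in both lines. Its signals were 5128 ± 513 and 4917 ± 492 in AB1-HA (vehicle, then IFN-γ) and 8196 ± 820 and 6055 ± 605 in LLC. The differences were −0.10 ± 0.20 and −0.25 ± 0.20, from −0.11 to −0.02 and from −0.39 to −0.25 over the alternatives tried. In AB1-HA the difference was smaller than the scanner error.

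Eif2ak2, the kinase PKR, was higher by a smaller step than the sensors at the scaling used here, with Ifih1 taken by probe 1. It read 1561 ± 156 with vehicle and 4254 ± 425 with IFN-γ in AB1-HA, and 667 ± 66.7 and 1409 ± 141 in LLC. Treated LLC cells thus did not exceed untreated AB1-HA cells, differing by −0.17 on the scaled log2 level. The differences with IFN-γ were 1.41 ± 0.20 (2.65-fold) and 1.27 ± 0.20 (2.41-fold), between 1.39 and 1.48 and between 1.1 and 1.27 over the alternatives.

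Adar, the editing enzyme, depended on the probe. Probe 1 gave 2001 ± 200.1 and 9215 ± 921 in AB1-HA, and 1055 ± 105 and 3148 ± 315 in LLC. Probe 2 gave 1295 ± 130 and 2332 ± 233 in AB1-HA, and 1235 ± 123 and 1936 ± 194 in LLC. Both probes were brighter with IFN-γ in each line, but by probe 1 the differences were 2.16 ± 0.20 and 1.77 ± 0.20 and by probe 2 they were 0.81 ± 0.20 and 0.84 ± 0.20, under 2-fold. The gap between the probes was 1.36 in AB1-HA and 0.93 in LLC. Both probes carry the same RefSeq transcript in the array files and RefSeq lists 4 curated Adar transcripts; which of the p150 and p110 forms each probe reads was not tested.

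**Figure D2:**
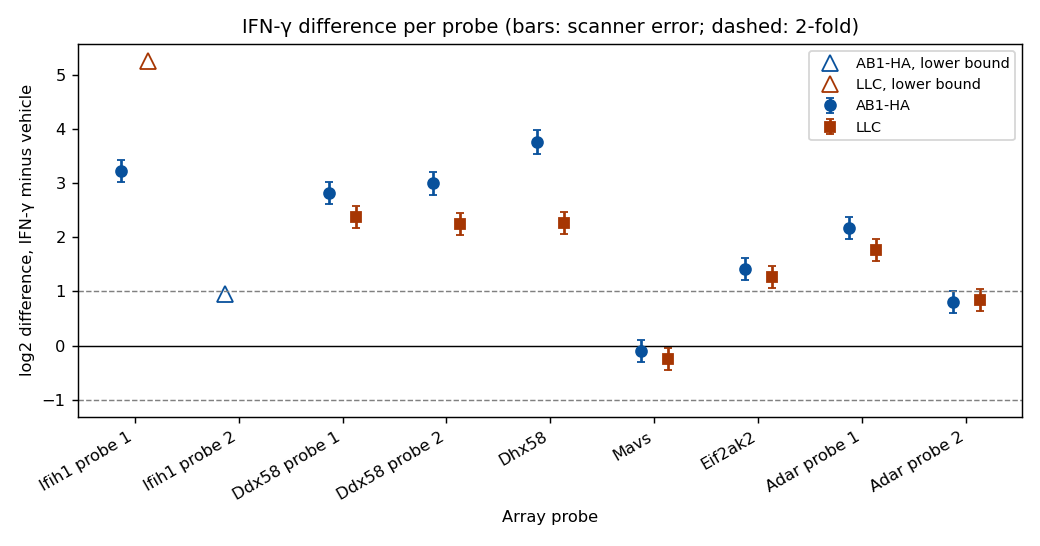
Log2 difference between the IFN-γ and vehicle arrays for each probe in AB1-HA (circles) and LLC (squares), with the scanner's error as bars; triangles are lower bounds and dashed lines mark 2-fold. The Ddx58, Dhx58 and Eif2ak2 probes lie above 1 in both lines, Mavs lies at −0.10 and −0.25, and the 2 Adar probes lie on either side of 1.

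The vehicle arrays were set against each other to see how the resting levels of the genes compared. In LLC, 3 of 8 probes with a value were at least 2-fold lower than in AB1-HA and none was higher, where 17.6% of 24281 probes were lower and 14.3% higher. Ifih1 probe 1 was at least 28.2-fold lower in LLC (at least 1.67 on the log2 scale under normexp). Eif2ak2 was 2.71-fold lower (−1.44 ± 0.20) and Adar probe 1 2.20-fold lower (−1.14 ± 0.20), while Adar probe 2 was at −0.28. Dhx58 (0.46) and Mavs (0.47) were within 2-fold toward LLC. The Ddx58 probes pointed in opposite directions, −0.59 by probe 1 and 0.61 by probe 2, so no direction is given for that gene. Of all probes past 2-fold in this comparison, 44.9% were higher in LLC, and 55.9% under cyclic loess normalization.

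With IFN-γ, 5 of 9 probes were lower in LLC and none was higher, where 13.6% of 24357 probes were lower and 14.0% higher. They were Ifih1 probe 1 (−2.78, 6.87-fold), Eif2ak2 (−1.57), Adar probe 1 (−1.53), Dhx58 (−1.04) and Ddx58 probe 1 (−1.03). The last 2 lay close to the threshold and fell short of it under normexp (−0.73 for Dhx58 and −0.96 for Ddx58), which left 3 probes past 2-fold. Ifih1 probe 2 had a bound just inside the threshold, at least 1.99-fold lower; it passed the threshold under array median scaling, quantile and cyclic loess normalization and was at −0.31 under normexp. Ddx58 probe 2 (−0.14, less than its scanner error of 0.20), Adar probe 2 (−0.25) and Mavs (0.32) were within 2-fold. Set against untreated AB1-HA, treated LLC was at 0.44 for Ifih1 probe 1, 0.63 and 0.56 for the Adar probes, −0.17 for Eif2ak2 and 0.22 for Mavs, all within 2-fold, and at 1.79 and 2.86 for the Ddx58 probes and 2.72 for Dhx58. For Ifih1 probe 1 and Adar the order of levels from the top was thus treated AB1-HA, treated LLC, untreated AB1-HA and untreated LLC, with the middle pair within 2-fold.

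**Figure D3:**
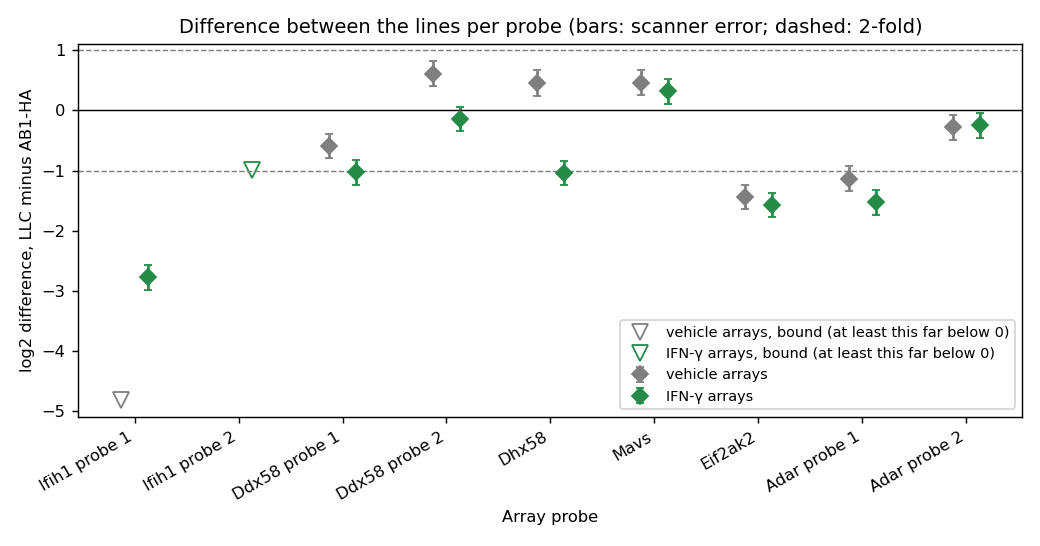
Log2 difference LLC minus AB1-HA for each probe, on the vehicle arrays (grey) and on the IFN-γ arrays (green), with the scanner's error as bars; open triangles are bounds and dashed lines mark 2-fold. Ifih1 probe 1, Eif2ak2 and Adar probe 1 lie below −1 on both pairs of arrays, and Dhx58 lies at 0.46 with vehicle and at −1.04 with IFN-γ.

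The IFN-γ differences of the 2 lines were then compared directly, over the 7 member probes well above background on all 4 arrays. Dhx58 was the one probe past 2-fold: its difference was smaller in LLC by −1.50 ± 0.30, the 95th lowest of 20690 probes, of which 1.45% were lower by 2-fold and 3.38% higher. Under normexp it was −0.86 and no member probe passed 2-fold. For Ddx58 the values were −0.44 and −0.76 by probes 1 and 2, for Adar −0.40 and 0.03, for Mavs −0.15 and for Eif2ak2 −0.14. The sign for Adar probe 2 turned under other scalings (−0.11 at the lowest), and all its values were below the scanner error of 0.29. Of all probes past 2-fold here, 70.0% were higher in LLC, against 49.5% under array median scaling, 56.3% under quantile and 44.3% under cyclic loess normalization. Ifih1 could not be placed among these probes, but its LLC bound exceeded its AB1-HA value by 2.04, so its difference was at least 4.10-fold larger in LLC at this scaling. Under normexp the LLC bound of 1.91 lay below the AB1-HA value of 2.59, and no direction can be given for Ifih1 there.

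Around these genes, the share of the signalling chain past 2-fold was near that over all genes. Of 29 genes of RIG-I-like receptor signalling, 26 had a value in AB1-HA and 27 in LLC. The one higher gene in each line was Irf7, the inducible transcription factor of the type I interferon genes, and none was lower, against 2.98% of 13208 genes higher and 1.17% lower in AB1-HA and 3.58% of 13392 higher and 1.36% lower in LLC. Irf7 read 273 and 1817 in AB1-HA (2.70), and, in LLC, 4.35 with vehicle (not above background) and 230 with IFN-γ (at least 34.8-fold). Its constitutive relative Irf3 was at −0.22 and −0.18, the kinases Tbk1 at 0.31 and −0.03 and Ikbke at −0.10 and 0.13, and Trim25, the ubiquitin ligase that activates RIG-I, at 0.76 and 0.53, each for AB1-HA and then LLC. Ifnb1 was well above background on the AB1-HA IFN-γ array alone, at 8.25, too dim for a bound above 1, and Ifna4 on none. The list medians were 0.10 and −0.03, beside −0.08 and −0.06 over all genes.

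Negative regulators of the sensors showed no gene past 2-fold in either line, of 22 with a value in AB1-HA and 23 in LLC (medians −0.05 and 0.08). Over all genes 2.98% were higher in AB1-HA and 3.58% in LLC, so a count of 0 in a list of this size is near the background. The mitochondrial inhibitor Nlrx1 was at 0.08 and 0.29. Rnf125, a ligase that marks RIG-I for degradation, was at 0.09 in LLC and was not well above background on either AB1-HA array. In the PKR axis, none of 24 genes passed 2-fold in either line (medians −0.02 and 0.14), which is likewise near the background. The PKR substrate Eif2s1 was at 0.02 and 0.52, the PKR inhibitor Dnajc3 at −0.10 and 0.18, and the PKR activator Prkra and inhibitor Tarbp2 were at −0.06 and −0.13 in AB1-HA and at −0.05 and 0.08 in LLC. The other eIF2α kinases, Eif2ak1, Eif2ak3 and Eif2ak4, were at −0.15, 0.09 and 0.09 in AB1-HA and at −0.23, −0.46 and −0.31 in LLC, where Eif2ak2 was higher in both lines.

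Of the other RNA sensors and double-stranded RNA-binding proteins, 6 of 32 with a value were higher in AB1-HA and 4 of 32 in LLC, and none was lower, where 2.98% and 3.58% of all genes were higher and 1.17% and 1.36% lower. Over the list, the medians were −0.09 and −0.08. Tlr3, the endosomal receptor for double-stranded RNA, read 23.1 and 323 in AB1-HA (3.76) and 14.3 and 39.4 in LLC (1.65). Zbp1, which binds Z-form RNA through the same kind of domain as ADAR1 p150, read 1898 and 55732 in AB1-HA (4.84, and 8.84 by another probe). In LLC it read 3.78 with vehicle (not above background) and 8204 with IFN-γ (at least 1240-fold). By the other probe the LLC difference was at least 7.17 on the log2 scale. Oasl2, a relative of the oligoadenylate synthetases, had 4.93 in AB1-HA and at least 749-fold in LLC, where its vehicle signal was not well above background. Zc3hav1, the zinc-finger antiviral protein, was at 1.21 in AB1-HA and 0.44 in LLC. Oasl1 passed 2-fold in both lines (1.02 and 1.62). Adarb1, the second editing enzyme, was at −0.53 and −0.13. Of the 5 genes higher in LLC over all 4 lists, Irf7, Zbp1 and Oasl2 shared with Ifih1 a vehicle signal that was not well above background in LLC and was in AB1-HA; without such bounds the count of higher genes in LLC was 2, and under normexp it was 3.

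**Figure D4:**
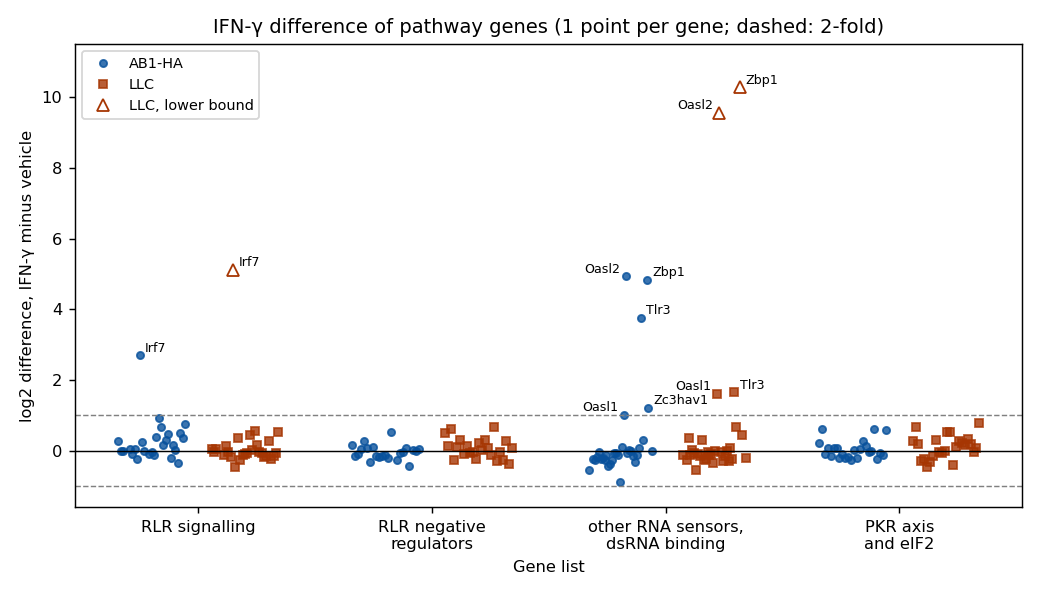
Log2 difference IFN-γ minus vehicle for the genes of 4 pathway lists (all but 1), 1 point per gene by its brightest probe, in AB1-HA (circles) and LLC (squares); triangles are lower bounds, dashed lines mark 2-fold, and genes past it are named. The genes past 2-fold, of which 6 of the 7 in AB1-HA and all 5 in LLC are drawn, lie in 2 of the lists, and the negative regulators and PKR axis lie between the dashed lines.

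The genes whose pattern over the 4 arrays was most like that of each member were found among 11985 genes well above background on all 4, by the Euclidean distance between log2 profiles centred on their mean. For Ddx58 probe 1 they were the death receptor Fas (0.25), the peptide transporter Tap2 (0.26) and the class I gene H2-Q6 (0.33, uncertain for its near-identical relatives). Ddx58 probe 2 was not placed, and between the vehicle arrays the 2 probes pointed in opposite directions (−0.59 and 0.61). For Dhx58 they were the complement proteases C1s1 (0.33) and C1s2 (0.51), which are close paralogs, and Tvp23a (0.43). Among the genes nearest to Adar probe 1 were the class I gene H2-M3 (0.29) and Herc6, an interferon-induced ubiquitin ligase (0.33). Eif2ak2 lay nearest to the pore-forming Gsdmd (0.39), Mgst1 (0.41) and the exonuclease Isg20 (0.45). Mavs, with its flat profile, had Thoc1, Kat7 and Ncoa2 at 0.02, 0.03 and 0.03. With 4 arrays such likeness is a description of these arrays. Ifih1 was not placed because it was not measured on the LLC vehicle array.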

How the data were processed

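RNA of AB1-HA and LLC cells was labelled with Cy3, per the labels' protocols, and read on 4 single-colour arrays of 1 slide. Per the file headers, the deposited intensity values came from Agilent Feature Extraction 10.7.1.1 (10.7 per the submitters' processing notes), which subtracted background without normalizing between arrays. The authors' value table holds log2 values, with their normalization not given in the sources used here. Its columns followed signals scaled to the 75th percentile and centred per probe (correlations of 0.99999; column medians 0.11, −0.08, −0.13 and 0.08).

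Control spots and outlier-marked spots (166 to 201 per array) were left out, and the mean over a probe's spots was taken. At least 0.5 of these spots had to carry the scanner's mark for the probe to count as well above background. Each array was scaled to its 75th percentile. A probe not well above background on 1 of 2 arrays got a bound, set by whichever was larger, its own signal or the array's lowest signal well above background (7.53 to 8.26); a bound under 1-fold gave no value. The files hold no symbols, so accessions were matched without version to RefSeq genes (GRCm38.p6, for names; the array annotation is of build mm9): 26575 probes were named and 12844 were not. For pathway genes the probe with the highest mean was used.

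With 1 array per group, differences were called at 2-fold and no test was run. The calls were tested on simulated data. The members and lists were chosen with earlier results of these data known, and the 3 motifs with the sequences in view. The text names all member probes, up to 5 genes past 2-fold per list and line, 17 pathway genes and 4 check genes whatever their values, and 3 nearest genes per member; a few genes that this rule or the lists hold are not reported here. Alternatives were array median scaling, quantile and cyclic loess normalization, normexp (offset 50, on median spot signals), the authors' table, a stricter filter and none, outlier spots kept and, for lists, the mean over a gene's probes. Python 3.11.15, numpy 2.4.6, pandas 2.3.3, R 4.3.3 and limma 3.58.1 were used.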

Additional observations from a re-analysis of the deposited data

How the results depend on the processing

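Across 323 values of the member probes under the alternatives tried, 311 stayed on their side of 2-fold, 3 fell short of it and 9 passed it. For probes well above background on all arrays compared, the stricter filter and no filter repeated the main value by construction. For these probes the authors' table and kept outlier spots moved it only slightly. The count of 311 is thus no measure of robustness. The sign turned in 3 of the 311, all of them the difference of the IFN-γ differences for Adar probe 2 (−0.11 under array median scaling, −0.05 under cyclic loess and −0.02 under normexp). All 9 that passed it belong to the dim Ifih1 probe 2. The 3 that fell short came under normexp, which left 3 member probes past 2-fold between the lines with IFN-γ in place of 5, and 0 in place of 1 for the difference of the IFN-γ differences. Without a background filter the latter count was 3. In LLC, 3 genes of the pathway lists passed 2-fold under normexp and 2 over probes measured on every array compared, in place of 5. The counts of member probes for IFN-γ in each line and between the vehicle arrays stayed within 1.5 times under all alternatives. The lowest counts were 5 in LLC and 2 between the vehicle arrays, under the stricter filter, which left Ifih1 probe 1 without a value there. Dim signals limit Ifih1 probe 2 in all comparisons and Ifih1 probe 1 in LLC. Low vehicle signals also limit Dhx58 and Ddx58 probe 2. Under normexp their differences with IFN-γ were 1.95 and 1.91 in AB1-HA, and 1.09 and 1.34 in LLC. No paired analysis was possible because each group holds 1 array and the labels give no replicate numbers.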
